A study of Mus musculus with 10 samples.

Results

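Serpina1 and Serpina3 genes encode plasma and intracellular protease inhibitors that sit side by side on mouse chromosome 12. The 10 genes described here are Serpina1a, Serpina1b, Serpina1c, Serpina1d and Serpina1e, and Serpina3c, Serpina3g, Serpina3k, Serpina3m and Serpina3n. They were found by matching their symbols to the Ensembl identifiers of a table of 21939 genes, and all 10 passed the filter on low counts that left 13641 genes for testing. The set was selected on measured values in part, since the large difference of Serpina3c between p65 KO and control was already known. Comparisons that use the p65 KO libraries are therefore given for these 10 genes as a description, with no test.

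RNA was sequenced from freshly isolated hepatocytes of 10 male mice, 1 library per mouse, with 3 control, 2 Nrf2 KO, 2 p65 KO and 3 DKO libraries. The labelled age was 8 to 9 weeks. The authors describe other mice of the study as older than that 12 days after knockout induction, so it reads as the age at injection. Control mice were wild-type C57BL/6J, and the others carried floxed alleles of Nrf2 (gene Nfe2l2), of p65 (gene Rela) or of both, on the same background. Every mouse, controls included, had received AAV8Cre, an adeno-associated virus that expresses Cre from the thyroxine-binding globulin promoter and so acts in hepatocytes, 12 days before the cells were taken. Cells were purified by low-speed and Percoll centrifugation only, so other liver cells could remain, and Cre left the alleles of those cells intact. Libraries held 33707165 to 49897382 estimated counts.

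The totals per gene do not show the deletions. The authors did report efficient loss of Nrf2 and p65 in isolated hepatocytes 12 days after injection, by RT-qPCR and Western blot. They also reported lower Nqo1, Gclc and Saa3 RNA in the respective knockouts by RT-qPCR. Nfe2l2 had 1990 to 2318 normalized counts (counts scaled to a common library size) in control and 4739 to 5005 in the libraries labelled Nrf2 KO, and Rela had 1221 to 1276 in control and 1183 to 1209 in those labelled p65 KO. The table holds 1 value per gene, so deleted exons were not counted apart, and genotype names here are those of the labels throughout. Nqo1, a classical Nrf2 target, had 181 to 218 normalized counts in control, 63.0 to 84.0 in Nrf2 KO, 203 ± 5.56 (SD, n = 2) in p65 KO, beside 52.6 to 103 in DKO.

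Serpins inhibit by suicide: a protease cuts an exposed loop near the end of the protein, the reactive centre loop, and is trapped in a covalent complex. The letters of that loop decide which protease is caught. Humans have 1 SERPINA1 gene (alpha-1-antitrypsin, the main blood inhibitor of neutrophil elastase) and 1 SERPINA3 gene (alpha-1-antichymotrypsin), whereas mice have a cluster of copies of each, made mainly by the liver. Several are acute phase genes, which respond to cytokines through NF-κB, of which p65 is a subunit, and through STAT3.

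The 10 genes lie within 686 kb (GRCm39, chromosome 12, from 103694413 to 104380597). The 5 Serpina1 genes and Serpina3c are on the minus strand, and Serpina3g, Serpina3k, Serpina3m and Serpina3n are on the plus strand. The coding sequences of the Serpina1 genes were 96.3% to 98.5% identical in pairs, those of the Serpina3 genes 82.7% to 92.0%, and pairs between the clusters 62.1% to 71.5%. Both the 82.7% and the 71.5% came from Serpina3g, whose reference coding sequence has 744 bases against 1239 to 1308 in the others. Without it, pairs between the clusters reached at most 64.1%. The stretch that encodes the reactive centre loop, in 1 exon of each gene, is where copies of a cluster part: 15 of 72 positions were not alike in all 5 Serpina1 genes. The stretches of the genes whose levels differed most between genotypes follow, with that of Serpina1a or Serpina3k as the reference, 5′ to 3′ on the coding strand, and capitals mark bases that differ from the reference of the cluster in an alignment.
Serpina1a (chr12:103820024-103820095, minus strand): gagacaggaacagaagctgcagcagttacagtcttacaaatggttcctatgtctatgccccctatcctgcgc
Serpina1e (chr12:103913367-103913438, minus strand): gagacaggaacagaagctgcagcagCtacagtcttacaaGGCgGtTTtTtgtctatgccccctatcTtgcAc
Serpina3k (chr12:104311522-104311596, plus strand): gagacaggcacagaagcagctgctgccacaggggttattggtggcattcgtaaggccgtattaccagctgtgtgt
Serpina3c (chr12:104113581-104113652, minus strand): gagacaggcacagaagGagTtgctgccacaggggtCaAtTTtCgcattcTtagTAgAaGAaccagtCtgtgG
Serpina3g (chr12:104207325-104207405, plus strand): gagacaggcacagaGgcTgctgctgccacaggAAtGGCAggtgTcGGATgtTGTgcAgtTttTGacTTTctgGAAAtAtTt
Serpina3m (chr12:104360022-104360102, plus strand): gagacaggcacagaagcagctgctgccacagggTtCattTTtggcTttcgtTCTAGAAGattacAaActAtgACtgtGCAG
Serpina3n (chr12:104379701-104379781, plus strand): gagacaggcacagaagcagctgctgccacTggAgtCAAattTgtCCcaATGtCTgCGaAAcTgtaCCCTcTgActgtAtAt
Serpina1e differed from Serpina1a at 10 bases of this stretch. The Serpina3 stretches differed from that of Serpina3k at 15 (Serpina3c), 23 (Serpina3g), 16 (Serpina3m) and 20 bases (Serpina3n), beside gaps of 3 to 6 bases.

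Likeness between copies limits how reads can be assigned. Of all windows of 100 bases, the read length, in the reference transcript of each gene, between 16.8% (Serpina1e) and 59.5% (Serpina1c) of those of the Serpina1 genes were also found in another gene. The most frequent matches were in each case the other Serpina1 copies. The share was 54.2% for Serpina3g, whose windows most often matched Gm56487, Serpina3h, Serpina3i and Serpina3e-ps. It was 6.09% for Serpina3m, 2.40% for Serpina3k and 0.186% for Serpina3n, and no window of Serpina3c was shared. The annotated spans of Serpina3k and Serpina3m overlap on the same strand, as do those of Serpina1b and Serpina1d. Single Serpina1 and Serpina3g values are therefore less certain than the Serpina1 sum or Serpina3c.

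Both clusters were abundant in control hepatocytes, where the 5 Serpina1 genes took 3.03% to 3.66% of all counts and the 5 Serpina3 genes 1.05% to 1.52%. Per kilobase of reference transcript, the mean control level was highest for Serpina1e (289374 ± 92696 normalized counts per kb, SD, n = 3) and Serpina1c (238606 ± 21998), whose libraries overlapped. Next came Serpina1b (124643 ± 11264), Serpina3k (117152 ± 25367) and Serpina1a (103888 ± 10009), each overlapping its neighbour in that order. Serpina1d followed at 78306 ± 5652, below every library of Serpina1a. Serpina3n (4118 ± 638) and Serpina3m (3962 ± 618) overlapped each other and lay far below, then Serpina3g at 14.6 ± 9.80 and Serpina3c at 1.47 ± 0.937 normalized counts per kb. In p65 KO the order of the means changed at the top, where Serpina1c (206876 ± 27674, n = 2) lay above Serpina1e (157480 ± 6311), and at the bottom, where Serpina3c (1124 ± 117) lay above Serpina3g (181 ± 40.9). DKO libraries kept Serpina1e first, at 481137 ± 61822 (n = 3), and Serpina3c last, at 0.736 ± 0.618.

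**Figure D1:**
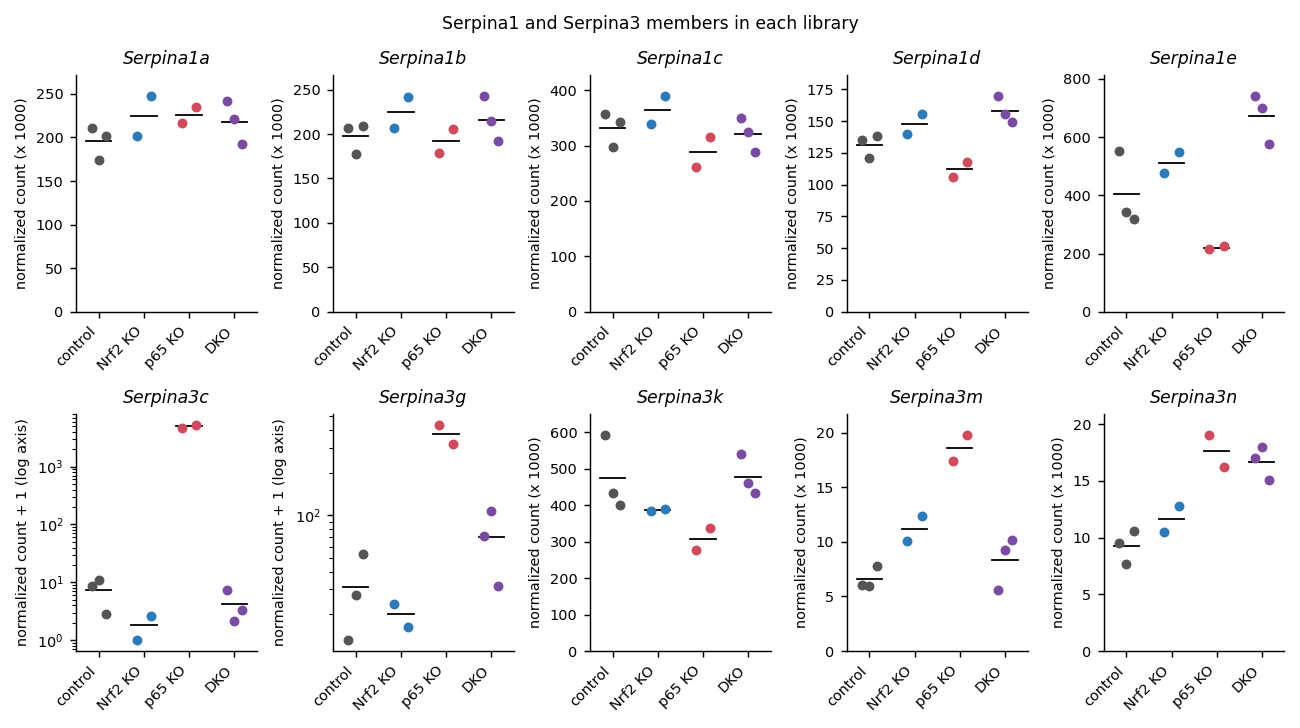
Normalized counts of the 10 genes in each library, on an axis from 0, or as normalized count + 1 on a log axis for Serpina3c and Serpina3g, with 1 point per library and a line at the mean of each genotype. Serpina3c stands at 4586 and 5314 in the 2 p65 KO libraries and below 10 in each of the other 8, while Serpina1e is lowest in p65 KO and highest in DKO.

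Serpina3c was nearly silent in 3 of the 4 genotypes. It had 7.73, 9.83 and 1.87 normalized counts in the control libraries (7, 10 and 2 estimated counts), 0 and 1.62 in Nrf2 KO, 4586 and 5314 in p65 KO, and 6.31, 1.12 and 2.29 in DKO. The lower p65 KO library stood at 466 times the highest of the other 8. The ratio of the p65 KO mean to the control mean was 764, and the fitted log2 fold change was 9.58 ± 0.35 (SE) against control. DKO libraries, also labelled as lacking p65, lay within the range of control or just below it, and the log2 fold change of DKO against p65 KO was -10.49 ± 0.38. Against control the DKO change was not past the threshold (log2 fold change -0.92 ± 0.68, adjusted p = 0.45, edgeR's quasi-likelihood test with Benjamini-Hochberg adjustment over all genes tested). Nrf2 KO libraries held 0 and 2 estimated counts, below the 3 that a count of 0 still allows, so no fold is given for them (adjusted p = 0.37).

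Serpina3g, also called Spi2A, is an intracellular inhibitor of cathepsins, which in other tissues is known from immune cells. Control libraries had 12.1, 26.6 and 52.3 normalized counts, Nrf2 KO 22.7 and 15.4, p65 KO 435 and 315, and DKO 70.5, 107 and 30.9. The p65 KO libraries were the highest without overlap, whereas DKO overlapped control. On the log2 scale the change was 3.60 ± 0.54 in p65 KO against control and -2.43 ± 0.51 in DKO against p65 KO. In DKO against control it was 1.17 ± 0.51 and missed the threshold (adjusted p = 0.20 by edgeR), as did DKO against Nrf2 KO (1.87 ± 0.61, adjusted p = 0.20, higher in 3 of 3 DKO libraries). Markers of other liver cells were also higher in p65 KO and are given with the gene lists below, and their part in it was not tested.

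Serpina3m had 6029, 5929 and 7751 normalized counts in control, 10036 and 12325 in Nrf2 KO, 17376 and 19736 in p65 KO, beside 5614, 9234 and 10182 in DKO. Levels in both single knockouts lay above all control libraries, and those of DKO overlapped control. Against control it changed on the log2 scale by 1.50 ± 0.22 in p65 KO, 0.77 ± 0.22 in Nrf2 KO (adjusted p = 0.23 by edgeR, higher in 2 of 2 libraries) and 0.34 ± 0.20 in DKO (adjusted p = 0.34). DKO against p65 KO gave -1.15 ± 0.22. With the changes of the single knockouts added, the DKO value was lower by 1.92 ± 0.32 on the log2 scale.

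Serpina3n, an acute phase inhibitor of granzyme B and cathepsin G, was the only Serpina3 gene whose DKO libraries stayed at the p65 KO level. Its normalized counts were 9543, 7717 and 10549 in control, 10505 and 12804 in Nrf2 KO, 19018 and 16234 in p65 KO, beside 17017, 17965 and 15074 in DKO. All 5 libraries labelled p65 KO or DKO lay above all 5 labelled control or Nrf2 KO. In DKO against control the log2 fold change was 0.85 ± 0.14, with an adjusted p of 0.00880 by edgeR and every DKO library above every control library, but it was below the fold threshold of 1 on the log2 scale that a call required. The change was 0.93 ± 0.16 in p65 KO against control, and DKO against p65 KO differed by -0.08 ± 0.16. DKO against Nrf2 KO was 0.52 ± 0.16 (adjusted p = 0.19) and Nrf2 KO against control 0.33 ± 0.16 (adjusted p = 0.57).

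Serpina3k, the most abundant Serpina3 gene, encodes contrapsin, a secreted inhibitor of trypsin-like proteases, and had its lowest levels in p65 KO. Control libraries had 591683, 432628 and 399435 normalized counts, Nrf2 KO 382907 and 390054, p65 KO 276031 and 336501, and DKO 539436, 462170 and 432827. Both p65 KO libraries were below all others, and both Nrf2 KO libraries were below all control and DKO libraries. On the log2 scale its changes were -0.63 ± 0.19 in p65 KO, -0.30 ± 0.19 in Nrf2 KO (adjusted p = 0.73 by edgeR) and 0.01 ± 0.17 in DKO (adjusted p = 0.98), each against control. DKO lay above p65 KO by 0.64 ± 0.19 and above Nrf2 KO by 0.31 ± 0.19 (adjusted p = 0.49).

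Among the Serpina1 genes, Serpina1e varied most. It had 553529, 342146 and 317960 normalized counts in control, 476938 and 547315 in Nrf2 KO, 213918 and 226396 in p65 KO, beside 740976, 701433 and 575479 in DKO. The p65 KO libraries were the 2 lowest of the 10 and the DKO libraries the 3 highest, with control 1 standing apart from the other control libraries. The log2 fold change was -0.88 ± 0.23 in p65 KO against control and 1.61 ± 0.24 in DKO against p65 KO, a ratio of means of 3.06. DKO against control reached 0.73 ± 0.21 and missed the threshold (adjusted p = 0.065 by edgeR). Without control 1 it was 1.03 and was called, while the value of p65 KO against control was -0.58 and that of Nrf2 KO against control 0.63. Nrf2 KO against control was 0.34 ± 0.23 (adjusted p = 0.74) and DKO against Nrf2 KO 0.39 ± 0.23 (adjusted p = 0.47).

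Serpina1d had the same order of genotype means as Serpina1e, with smaller differences. Its normalized counts were 135448, 120816 and 138632 in control, 139707 and 155786 in Nrf2 KO, 106345 and 117653 in p65 KO, beside 169742, 155953 and 149169 in DKO. The p65 KO libraries lay below and the DKO libraries above every control library. Log2 fold changes were -0.23 ± 0.13 in p65 KO and 0.27 ± 0.12 in DKO (adjusted p = 0.21 by edgeR) against control, and 0.50 ± 0.13 in DKO against p65 KO. With libraries scaled to equal totals, the value was -0.05 in p65 KO against control and 0.23 in DKO against p65 KO.

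Serpina1a, Serpina1b and Serpina1c stayed close to control in every genotype. Control means were 195725 ± 18858, 197559 ± 17854 and 332378 ± 30643 normalized counts (SD, n = 3). In p65 KO the means were 225817 ± 13611, 192000 ± 19349 and 288179 ± 38550 (n = 2), and in DKO 218185 ± 24808, 216187 ± 25553 and 321165 ± 30338 (n = 3). Both p65 KO libraries of Serpina1a (216193 and 235442 normalized counts) lay above every control library, the highest of which had 210864. Those of Serpina1b and Serpina1c overlapped control. DKO and control libraries overlapped for each of the 3 genes, and log2 fold changes against control lay between -0.21 and 0.21 in all 3 knockouts. With libraries scaled to equal totals, Serpina1a in p65 KO was at 0.39. With reads of these copies hard to divide, these values are bound to one another through the Serpina1 sum.

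By its means, the Serpina1 sum was lowest in p65 KO and highest in DKO, and the share of Serpina1e in it had the same order. The sum was 1261840 ± 181118 normalized counts in control, 1473330 ± 152959 in Nrf2 KO, 1038150 ± 88330 in p65 KO, beside 1586450 ± 175439 in DKO, or 1.17, 0.823 and 1.26 times the control mean. Both p65 KO libraries (975694 and 1100610) fell below the lowest control library (1112730), and the DKO range of 1397620 to 1744390 overlapped that of control, 1112730 to 1463390. As shares of all counts, however, p65 KO (2.85% and 3.21%) overlapped control (3.03% to 3.66%), so that gap depends on the scaling. Serpina1e made up 26.3% to 37.8% of the sum in control, 34.6% to 34.9% in Nrf2 KO, 20.6% to 21.9% in p65 KO, beside 41.2% to 43.4% in DKO. Its share in p65 KO was thus below, and in DKO above, that of every other library. Serpina1a made up 14.4% to 16.7% in control and 21.4% to 22.2% in p65 KO, where its share overlapped that of Serpina1e.

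Serpina3k set the Serpina3 sum, with 95.6% to 97.4% of it in control. That sum was 490458 ± 102167 normalized counts in control, 409335 ± 8294 in Nrf2 KO, 347772 ± 42888 in p65 KO, beside 503246 ± 53363 in DKO. Without Serpina3k, a sum chosen after the data were seen, it was 15876 ± 2348 in control, 22855 ± 3241 in Nrf2 KO, 41507 ± 129 in p65 KO, beside 25101 ± 2305 in DKO. The p65 KO mean was thus 0.709 times control for the whole sum and 2.61 times control for the other 4 genes. Serpina3c accounted for 0.00131% ± 0.000879 of the whole sum in control and 1.42% ± 0.0278 in p65 KO.

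**Figure D2:**
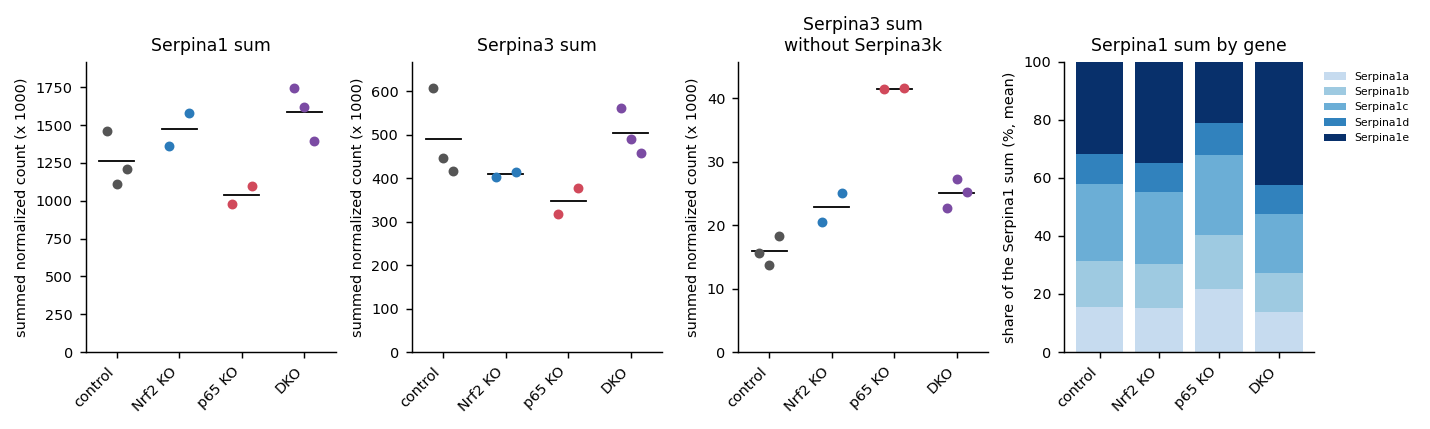
Summed normalized counts of the Serpina1 genes, the Serpina3 genes and the Serpina3 genes without Serpina3k, with 1 point per library and a line at the genotype mean, and the mean share of each gene in the Serpina1 sum in %. The Serpina3 sum is lowest in p65 KO, but without Serpina3k it is highest there, and the Serpina1e share runs from 21.2% in p65 KO to 42.3% in DKO.

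Counted together, no gene of the 10 was called (adjusted p no higher than 0.05 with a change of 1 or more on the log2 scale) in Nrf2 KO against control, where 0.55% of all tested genes were called. None was called in DKO against control, where 2.38% of all genes were, or in DKO against Nrf2 KO, where 0.433% were. At an unadjusted p under 0.05 there were 2 genes in Nrf2 KO (Serpina3c and Serpina3m), 4 in DKO (Serpina1d, Serpina1e, Serpina3g and Serpina3n) and 2 in DKO against Nrf2 KO (Serpina3g and Serpina3n). DESeq2 called 0, 0 and 1 (Serpina3g). In p65 KO against control 3 genes met the same thresholds, Serpina3c, Serpina3g and Serpina3m, all higher, beside 6.59% of all genes either way and 5.05% higher. In DKO against p65 KO there were 4, with Serpina3c, Serpina3g and Serpina3m lower and Serpina1e higher, beside 1.78% of all genes. Nothing is read from these last 2 counts, since the p65 KO value of Serpina3c was known when the genes were chosen. Libraries did not overlap with control for 4 of the 10 genes in Nrf2 KO (28.5% of all genes) and for 3 in DKO (26.5%).

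Loss of p65 can be compared with Nrf2 present (p65 KO against control) and with Nrf2 lost (DKO against Nrf2 KO). For Serpina1e and Serpina3k the sign differed: all p65 KO libraries were below all control libraries, and all DKO libraries above all Nrf2 KO libraries. The rise in DKO against Nrf2 KO was called for neither (adjusted p = 0.47 and 0.49 by edgeR). The share of all genes without overlap was not counted for these comparisons. For Serpina3m the p65 KO libraries were above control and the DKO libraries overlapped Nrf2 KO. Serpina3n and Serpina3g were higher without p65 in both settings, by 0.93 and 0.52 on the log2 scale for Serpina3n and by 3.60 and 1.87 for Serpina3g. The difference between both settings was 1.27 ± 0.33 on the log2 scale for Serpina1e and 0.94 ± 0.27 for Serpina3k, given with no test since the p65 KO libraries enter it.

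**Figure D3:**
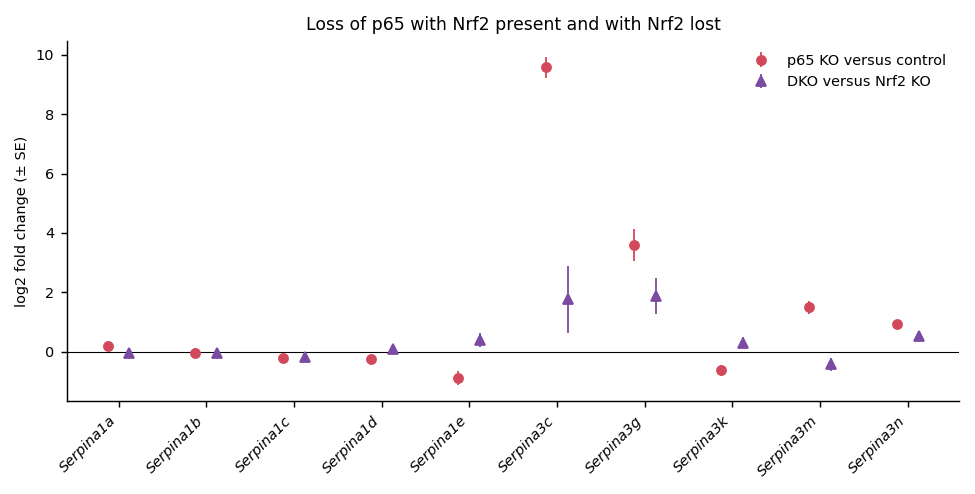
Log2 fold change with its standard error for each of the 10 genes when p65 was lost with Nrf2 present (p65 KO against control, circles) and with Nrf2 lost (DKO against Nrf2 KO, triangles). Serpina3c stands at 9.58 in the first setting, and Serpina1e and Serpina3k lie below 0 in the first and above 0 in the second.

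The other serpins of the same clade, all on chromosome 12 but Serpina7, were tested in every comparison, since they did not choose the set. Of 16 other clade A genes listed, 14 were in the table and 10 were tested. In p65 KO against control 3 were called higher and 1 lower, beside 5.05% of all genes called higher and 6.59% called either way. Serpina3f, which lies between Serpina3c and Serpina3g, had 9.94, 19.7 and 14.0 normalized counts in control, 9.89 and 10.5 in Nrf2 KO, 149 and 119 in p65 KO, beside 31.6, 58.3 and 29.8 in DKO. On the log2 scale it changed by 3.19 ± 0.41 in p65 KO (adjusted p = 0.0017 by edgeR), 1.44 ± 0.39 in DKO (adjusted p = 0.057) and -1.75 ± 0.39 in DKO against p65 KO (adjusted p = 0.035). In DKO it held intermediate levels, above every control library and below both p65 KO libraries.

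Serpina3i, which follows Serpina3g among the genes tested, had no count in control and 13 and 8 estimated counts in p65 KO, at least 10.3-fold higher with the 3 counts that 0 allows over the control group. It is 1 of the 3 counted as called higher, but it passed the filter on low counts only through its p65 KO counts, so no p is given, and the call was lost in 7 of the 17 alternatives that fitted it. Serpina6, corticosteroid-binding globulin, had 3361 ± 749 normalized counts in control, 6684 ± 1470 in Nrf2 KO, 8789 ± 1115 in p65 KO, beside 4703 ± 1262 in DKO. The change was 1.39 ± 0.23 on the log2 scale in p65 KO (adjusted p = 0.0051 by edgeR), 0.99 ± 0.23 in Nrf2 KO (adjusted p = 0.11) and 0.48 ± 0.21 in DKO (adjusted p = 0.21). With Nrf2 lost, the value for p65 loss (DKO against Nrf2 KO) was -0.51 ± 0.24 (adjusted p = 0.35), and it differed from the 1.39 with Nrf2 present by -1.89 ± 0.33 (adjusted p = 0.037), a difference called for 0.455% of all genes. Serpina12, the adipokine vaspin, fell by 1.73 ± 0.37 on the log2 scale in p65 KO (adjusted p = 0.014 by edgeR), from 3216 ± 791 to 968 ± 315 normalized counts, and without p65 KO 1 the value was -1.43 and the call was lost. It was higher in DKO than in p65 KO by 1.51 ± 0.36 (adjusted p = 0.046).

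**Figure D4:**
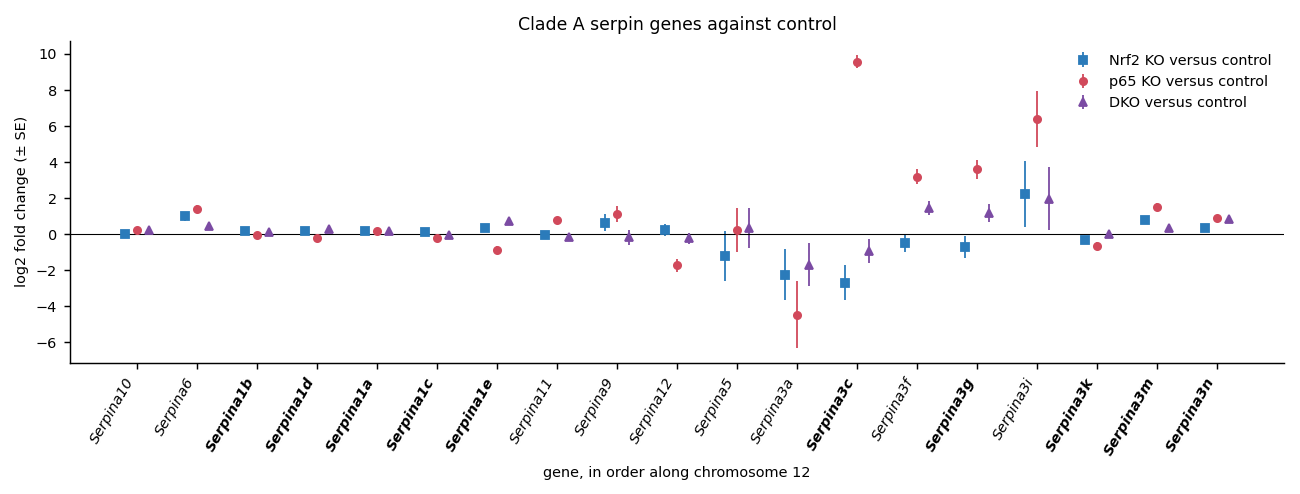
Log2 fold change against control with its standard error for the tested clade A serpin genes in their order along chromosome 12, with the 10 genes of the set in bold and squares, circles and triangles for Nrf2 KO, p65 KO and DKO. The largest p65 KO values lie from Serpina3c to Serpina3i, with 9.58 for Serpina3c, 3.19 for Serpina3f and 3.60 for Serpina3g, and the Serpina1 genes other than Serpina1e lie near 0.

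Promoters from RefSeq, 250 bases before the annotated start, were found for 8 of the 10 genes, not for Serpina3k and Serpina3m. They were listed on GRCm38 and placed on GRCm39 by exact and unique match. Those of Serpina3c and Serpina3n were 92.7% identical (229 of 247 aligned bases). A window of 50 bases is printed here. In Serpina3n it matches the 2 NF-κB patterns searched, in capitals, and in Serpina3c it matches neither. Other forms of the NF-κB motif were not searched, so Serpina3c is not shown to lack one.
Serpina3n (chr12:104372760-104372809, plus strand): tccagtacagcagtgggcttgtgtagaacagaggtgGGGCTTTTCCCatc
Serpina3c (chr12:104120286-104120335, minus strand): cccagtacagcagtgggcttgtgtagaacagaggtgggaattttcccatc
The 2 windows differ at 3 bases. On either strand, the motif of GGG and CC with 5 bases of any kind between was found in 45.98% of 32536 mouse promoter windows of the same length, and its narrower form, in which the last 3 of those 5 bases are TTT and which overlaps it, in 1.40%. The first form was found in all 5 Serpina1 promoters and in those of Serpina3g, Serpina3n, Serpina3f and Serpina3i, and not in that of Serpina3c. For Serpina3f this holds for the promoter at 104180553 to 104180802, while its other listed promoter, at 104180642 to 104180891, had no match. The narrower form was present in Serpina3n and Serpina3g, and in Serpina3i, and in none of the Serpina1 promoters. The STAT motif TTCNNNGAA, in 7.04% of all promoters, was present in Serpina3g, Serpina3f and Serpina3i. GTTAAT, part of the site of the liver factor HNF1, was found in all 5 Serpina1 promoters and in that of Serpina3c, against 6.47% of all. The antioxidant response motif TGACNNNGC, in 10.2% of all, and the interferon motif, GAAA and GAAA with 2 bases between, in 2.98%, were found in none of the 8. A match is a run of letters and not a shown binding site.

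Genes with known links to these inhibitors were counted by list. These lists, and those of cell markers below, were chosen with earlier results of these data known. Their counts, medians and adjusted p are therefore given as a description. A share of called genes above that of all genes is not read as independent evidence for a list. Of 26 interferon gamma response genes, 16 were called higher and 0 lower in p65 KO against control, and the median change was 1.33 on the log2 scale beside 0.00 over all genes tested. Of these, Irgm2 (1.90 ± 0.19, adjusted p = 0.00064 by edgeR), Igtp (2.31 ± 0.25, adjusted p = 0.00079) and Tgtp1 (3.41 ± 0.65, adjusted p = 0.0087), all GTPases of cell defence, were among the most abundant. In DKO against control 1 was called higher and 1 lower, and in DKO against p65 KO 0 were called higher and 7 lower. Of 25 acute phase genes, 5 were called higher and 2 lower in p65 KO, and 5 higher and 1 lower in DKO, with medians of 0.38 and 0.43 on the log2 scale. Over all genes, 6.59% were called in p65 KO and 2.38% in DKO, which is the background for these and the following lists. Steap4, an acute phase metal reductase (1.26 ± 0.20), Mt1, a metallothionein (2.23 ± 0.39), and Orm2, an orosomucoid (1.95 ± 0.46), rose in p65 KO, and Lbp, the lipopolysaccharide-binding protein, fell by 1.16 ± 0.21 on the log2 scale (adjusted p from 0.0042 to 0.020). Orm2 (2.45 ± 0.43) and Mt1 (1.41 ± 0.36) were also called higher in DKO (adjusted p = 0.011 and 0.048).

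Of 22 regulators of these genes, 3 were called higher in p65 KO (median 0.11 on the log2 scale) and 0 in DKO against control by edgeR, where DESeq2 called 1 and 4 had an unadjusted p under 0.05. The 3 were Il6ra, the interleukin-6 receptor (1.42 ± 0.36, adjusted p = 0.025 by edgeR), Socs3, the feedback inhibitor of STAT3 (3.16 ± 0.78, adjusted p = 0.024, with 2385 ± 2232 normalized counts in the 2 p65 KO libraries), and Cux2, a repressor (3.72 ± 1.08, adjusted p = 0.042). Of 13 serpins of other clades, 3 were called higher in p65 KO (median 0.25) and 0 in DKO (3 at an unadjusted p under 0.05, 0 by DESeq2). Those in p65 KO were Serpinb8 (1.21 ± 0.28), Serpinb6a (1.26 ± 0.25) and Serpinh1, a collagen chaperone (2.13 ± 0.49), with adjusted p from 0.010 to 0.019. Of 13 tested proteases that serpins or cathepsin inhibitors can meet, 1 was called in p65 KO and 2 in DKO (medians 0.08 and 0.20). Ctss, cathepsin S of macrophages, rose by 3.36 ± 0.32 in p65 KO (adjusted p = 0.00064 by edgeR) and 1.95 ± 0.30 in DKO (adjusted p = 0.0059), and Prtn3, a neutrophil protease, by 3.00 ± 0.75 in DKO (adjusted p = 0.043), where its libraries spread widely (62.6 ± 66.8 normalized counts, SD, n = 3, against 7.73 in control).

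Markers of Kupffer, sinusoidal endothelial and stellate cells were higher in p65 KO. All 12 Kupffer cell markers were called higher (median 2.80 on the log2 scale, and 5 called in DKO), and their summed level was 379 to 957 normalized counts in control, 264 to 815 in Nrf2 KO, 4470 to 6083 in p65 KO and 1661 to 2924 in DKO. All 6 markers of sinusoidal endothelial cells were called (median 1.86, and 1 called in DKO), with sums of 456 to 1019 in control, 2266 to 3149 in p65 KO and 1127 to 1584 in DKO, and 5 of 6 tested stellate cell markers (median 3.34, and 1 called in DKO), with sums of 141 to 330, 1579 to 1598 and 255 to 702. Neutrophil markers summed to 2.80 to 6.88 in control, 11.3 to 53.8 in p65 KO and 8.01 to 35.8 in DKO, with 1 of 4 called in p65 KO (Csf3r, 3.38 ± 0.92 on the log2 scale, adjusted p = 0.034 by edgeR), and Ly6g had no count in any genotype. T and NK cell markers were highest in DKO, with sums of 15.9 to 41.3 in control, 64.7 to 66.2 in Nrf2 KO, 42.5 to 44.7 in p65 KO and 73.2 to 168 in DKO, where Cd4 was called (1.96 ± 0.41 on the log2 scale, adjusted p = 0.023 by edgeR). B cell markers had sums of 0.983 to 2.80 in control, 1.89 to 9.14 in p65 KO and 3.16 to 7.85 in DKO. Both lists had 0 called in p65 KO by edgeR and DESeq2, and 1 of 8 and 1 of 2 tested genes at an unadjusted p under 0.05. Of the T and NK cell markers 6 of 11, among them Cd3d, Cd3g and Cd8a, had no count in control, and in p65 KO Cd3d had none. Cholangiocyte markers had 268 to 392 in control and 347 to 444 in p65 KO, with 0 called by both tools, 0 at an unadjusted p under 0.05, and Krt19 and Krt7 without a count in p65 KO. Hepatocyte markers such as Alb and Apoa1 were abundant in every library, summing to 3316040 to 4684800 in control and 3797420 to 4077590 in p65 KO, with 0 of 8 called there by both tools and 4 at an unadjusted p under 0.05. Means of Serpina1a, Serpina3g, Serpina3m and Serpina3n, and outside the set of Serpina3f, Serpina3i and Serpina6, had the order of the Kupffer, endothelial and stellate sums. That order was p65 KO above DKO above control, and the part of these cells in the values of those genes was not tested. Both Serpina3c and Serpina3g overlapped control in DKO, as did the stellate sums. All Kupffer and endothelial sums of DKO lay above those of control. The part of these cells in Serpina3c was not tested either. In bulk libraries, more cells of a type and more RNA per cell cannot be told apart.

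**Figure D5:**
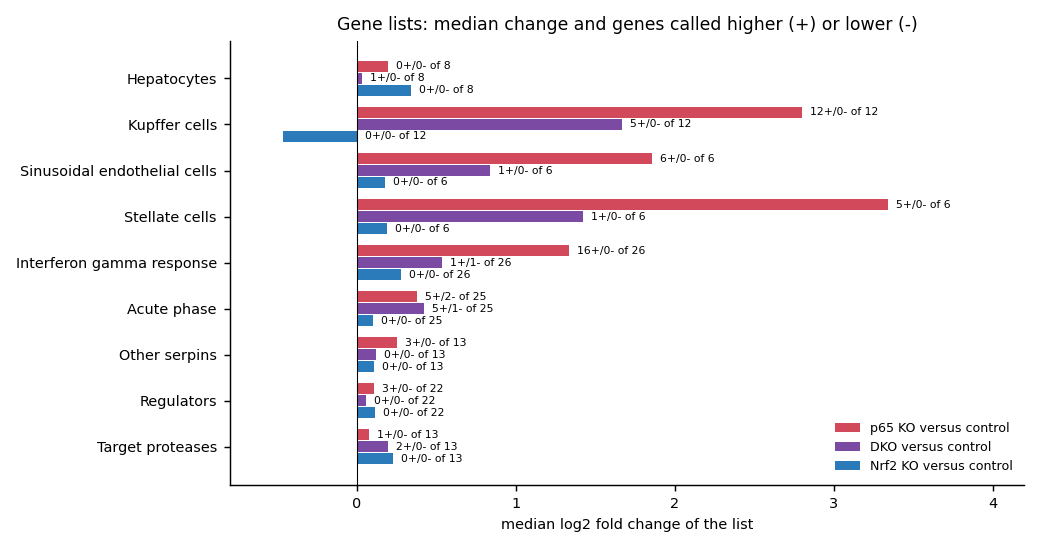
Median log2 fold change of 9 gene lists in p65 KO, DKO and Nrf2 KO against control, with the number of genes called higher (+) and lower (-) of those tested beside each bar. Kupffer cell markers stand at 12 of 12 called higher in p65 KO and 5 of 12 in DKO, and hepatocyte markers at 0 of 8 and 1 of 8. The lists were chosen with earlier results of these data known, so the counts are a description.

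Outside the set, the genes with a pattern over the 10 libraries most like that of each sum or gene were taken as those with the highest Pearson r of log2(normalized count + 1), over 10175 genes whose mean was 50 normalized counts or more. The points share their library and its scaling, and r is given as a description. For Serpina3c they were Aldoa (r = 0.96), Adcy6 (0.96) and Gm4841 (0.95), and Gm4841, an interferon-inducible GTPase, had mean levels of 18.0, 21.2, 4792 and 28.7 normalized counts in control, Nrf2 KO, p65 KO and DKO. For Serpina3g they were Igfbp7, Colec10 and Bgn, with r from 0.97 to 0.98. Colec10, a collectin, had means of 30.6, 27.0, 224 and 70.0 normalized counts in the same order. For Serpina3n they included Igfbp4 (0.97) and Slc15a4 (0.96), each with DKO means near or above those of p65 KO. Mpnd, AI182371 and Lyrm9 came first for the Serpina1 sum (0.97, 0.96 and 0.94), and 2410004B18Rik, Cyp2d40 and Gltpd2 for the Serpina3 sum (0.94, 0.92 and 0.91).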

How the data were processed

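Polyadenylated RNA was sequenced with 100-base single reads from a stranded library. The authors quantified reads with Salmon 1.10.3 on GRCm39 with GENCODE M33 and deposited a table of estimated counts per gene, in rounded values, named as normalized. Its totals ranged from 33707165 to 49897382 and its median-ratio size factors from 0.879 to 1.26, where a table scaled by that method would have factors near 1, so it was used as unscaled counts. Any other scaling was not given in the sources used here. The authors used DESeq2 1.42.1 for their own comparisons. How transcripts were summed to genes, and how reads of near-identical copies were divided, was not given in the sources used here. Symbols came from GENCODE M39, which matched 21926 of 21939 identifiers, and 6302 genes had no count.

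Counts were fitted with edgeR 4.0.16 (R 4.3.3) in 1 quasi-likelihood model over all 10 libraries, with TMM scaling and genes of at least 10 counts in sum. Genes were called at a Benjamini-Hochberg adjusted p no higher than 0.05 with a change of 1 or more on the log2 scale. Standard errors were derived from the F statistic. DESeq2 1.42.0, other scalings and filters, a replicate block and the omission of each library were alternatives. On simulated data, 95.0% to 97.5% of 200 genes changed by 2 on the log2 scale were recovered, with 4 to 9 false calls. The changed genes were drawn from those with a mean of 50 counts or more. Recovery of smaller changes or of genes with fewer counts was not simulated. No 2 libraries of a group agreed within sampling noise (chi-square per degree of freedom 46.9 to 215). Members and lists were chosen with earlier results of these data known. All 10 members were named. Of other clade A genes each one called was named, and of each list up to 4 called genes with the highest mean. For each sum and for Serpina3c, Serpina3g and Serpina3n the 3 genes most alike were named, except for results of single genes that are not reported here. Amino acid sequences were not used here.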

Additional observations from a re-analysis of the deposited data

Results flagged for a closer look

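Serpina1e and Serpina3k were picked out because the fold change for p65 loss had opposite signs with Nrf2 present and with Nrf2 lost, without overlap of the libraries. For Serpina1e the log2 fold change was -0.88 in p65 KO against control and 0.39 in DKO against Nrf2 KO. For Serpina3k it was -0.63 and 0.31. The rises in DKO against Nrf2 KO were not called (adjusted p = 0.47 for Serpina1e and 0.49 for Serpina3k by edgeR). The difference was not tested for these genes, as the p65 KO libraries enter it. Serpina6 was picked out by a test of the difference itself, which was -1.89 on the log2 scale (adjusted p = 0.037 by edgeR, 2 to 3 mice per genotype). It kept its sign in every alternative, from -2.29 to -1.65, and lost its call in 7 of 17 of them.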

How the results depend on the processing

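Over 18 alternatives to the reported fit, 538 of 540 results for the 10 genes in the tested comparisons stayed on the same side of the threshold. The exceptions were Serpina1e in DKO against control without control 1 (1.03) and Serpina3g in DKO against Nrf2 KO with the DESeq2 test (1.88), each newly called, so that 1 gene of the 10 was called there in place of 0. Since none was called in the reported fit, only a new call could change sides. Leaving out a library of a genotype outside the comparison hardly moves a value, so the 538 is no measure of robustness. In DKO against p65 KO the count of 4 became 2 with only the 2 genotypes fitted. Without each library in turn, the count ranged from 3 to 5 in p65 KO against control (5 without control 3, which added Serpina1e and Serpina3n), from 0 to 1 in DKO against control, and from 1 to 4 in DKO against p65 KO (1 without p65 KO 1 or p65 KO 2, leaving Serpina3c, and 2 without DKO 1). Calls of other clade A genes, 7 over all comparisons, ranged from 2 to 8 (2 without p65 KO 1, 3 without p65 KO 2, and 4 without control 1, control 2 or DKO 1) and were 13 with equal totals. Serpina12 and Serpina3f in DKO against p65 KO lost their calls in 10 and 8 of 18 alternatives. List genes called in p65 KO, 54, ranged from 31 (without p65 KO 1) to 56 without each library and were 58 with equal totals. Equal totals moved the median of genes whose mean was 50 counts or more from -0.06 to 0.12 in p65 KO against control. The log2 ratio of the Serpina1 sum to control in p65 KO then became -0.10 (reported -0.28, and -0.37 to -0.16 without each library), and that of the Serpina3 sum without Serpina3k became 1.57 (reported 1.39, and 1.29 to 1.50). Serpina1b in p65 KO against control (0.14 with equal totals), Serpina3k in DKO against control (-0.08), and Serpina1b and Serpina1c in DKO against p65 KO (-0.10 and -0.11), none of them called, changed sign under that scaling and under no other scaling tried. Serpina1b in p65 KO against control also changed sign without p65 KO 1 (0.06), and Serpina3k in DKO against control without control 2, control 3 or DKO 1 (-0.10 to -0.05). Equal totals further moved, with the sign kept, Serpina1a to 0.39, Serpina1c to -0.03, Serpina1d to -0.05 and Serpina3m to 1.68 in p65 KO against control. In DKO against p65 KO they moved Serpina1a to -0.32, Serpina1d to 0.23, Serpina1e to 1.34, Serpina3k to 0.37 and Serpina3n to -0.35. The cause was not tested.

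Counts of all genes called varied more. DKO against p65 KO had 243, but 504 with equal totals, 453 with DESeq2, 105 with only the 2 genotypes and 70 to 294 without each library, and the share called higher was 45.7%, or 17.1% with equal totals. DKO against control had 325 (57.2% higher, or 46.4% with equal totals), 541 with DESeq2, 215 with only the 2 genotypes and 147 to 316 without each library. DKO against Nrf2 KO had 59, 292 with DESeq2, 112 with no filter, 18 with only the 2 genotypes and 18 to 81 without each library. Nrf2 KO against control had 75, 135 with DESeq2 and 18 to 84, p65 KO against control 899 and 325 to 954, and the difference between both settings of p65 loss 62 and 8 to 119. Genes with few counts such as Serpina3c outside p65 KO are limited by depth.

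Replicate numbers are shared by the genotypes, but only 1 of 13 same-numbered pairs of libraries had a correlation of deviations above 0.1 (range -0.23 to 0.11), so the numbers were not taken to pair the mice. With a replicate block, 0, 3, 0, 0 and 3 of the 10 genes were called in Nrf2 KO, p65 KO and DKO against control, DKO against Nrf2 KO and DKO against p65 KO, with 7 calls of other clade A genes and 44 of list genes. Over all genes DKO against Nrf2 KO then had 37.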
